A study of Homo sapiens and Mus musculus with 16 samples.

Results

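The transcripts described here are 10 genes chosen by name, 5 that encode proteins binding AU-rich elements (ZFP36, ZFP36L1, ZFP36L2, ELAVL1 and KHSRP) and 5 immediate-early and MYC family genes (MYC, MYCN, FOS, JUN and EGR1). All 10 symbols were found among the 22286 genes of the human count table, and all 10 were matched, ignoring case, among the 15881 genes of the mouse table. The rule uses symbols and no measured value.

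The study purified P-bodies, cytoplasmic condensates of translationally repressed mRNA and protein, by sorting fluorescent LSM14A-GFP particles from lysed cells, and sequenced their RNA beside that of the fraction they were sorted from. That fraction, called cytoplasm here, is a resuspended pellet left after removal of nuclei, so it holds P-bodies too. Each of 4 cell types was represented by 2 P-body libraries and 2 cytoplasm libraries. HEK293T-LSM14a-GFP is a human embryonic kidney line, and KH2-LSM14a-GFP is a mouse embryonic stem cell (mESC) line kept in serum-LIF. Both carried the tagged protein on a lentiviral plasmid under an EF1a promoter. Liver bud progenitors and neurons at day 20 of differentiation were both derived from UCLA4-LSM14a-GFP, a human embryonic stem cell line with the construct at the AAVS1 locus under tetracycline control. The LSM14A-GFP transgene was therefore shared by every library, P-body and cytoplasm alike, and no cell without it was compared. The HEK293T and mESC libraries are labelled total RNA and were primed at random, while the liver bud progenitor and neuron libraries are labelled polyA RNA and were primed on poly(A) tails. Molecule label and cell type cannot be told apart where HEK293T or mESC is set beside the other cells.

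AU-rich elements are stretches of the 3′UTR, most often built from overlapping ATTTA pentamers, that make many growth and stress transcripts short-lived. ZFP36 (tristetraprolin) and its paralogs ZFP36L1 and ZFP36L2 bind them and recruit the deadenylation and decapping machinery, much of which also resides in P-bodies. KHSRP binds them and promotes decay as well, whereas ELAVL1 (HuR) binds them and usually stabilises the transcript. FOS, JUN, EGR1 and MYC are classical immediate-early genes, transcribed within minutes of a growth signal without new protein synthesis, and the FOS and MYC transcripts are textbook carriers of the element. The mRNAs of the binders are themselves regulated this way, and ZFP36 protein acts on its own transcript.

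The 3′UTRs of the representative transcripts were searched for ATTTA and for the stricter nonamer TTATTTATT, which contains ATTTA, on the transcript strand only. The windows given here are those with the most pentamers in each 3′UTR and were chosen because their genes carry the contrasts reported here. The windows hold 2 to 4 pentamers in human ZFP36, ZFP36L1, FOS and ELAVL1 and 1 in JUN, EGR1 and KHSRP. Each window has 30 bases, is read from GENCODE transcripts and is written 5′ to 3′ with the pentamers in capitals. The mouse Zfp36l1 and Fos windows are placed beside their human counterparts.
ZFP36, human hg38, chr19:39409185-39409214, plus strand: ggccctttATTTAtgacgactttATTTAtt
ZFP36L1, human hg38, chr14:68787719-68787748, minus strand: ttgtgtgaATTTATTTAaaagaaaaaaaaa
Zfp36l1, mouse mm10, chr12:80107811-80107840, minus strand: ttgtgtgaATTTATTTAaaagaaaaaaaaa
FOS, human hg38, chr14:75282060-75282089, plus strand: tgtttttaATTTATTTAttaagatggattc
Fos, mouse mm10, chr12:85477103-85477132, plus strand: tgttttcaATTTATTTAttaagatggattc
ELAVL1, human hg38, chr19:7961838-7961867, minus strand: tATTTAtacctATTTAtgtATTTATTTAtt
JUN, human hg38, chr1:58781331-58781360, minus strand: gaaaggatATTTAagaaaatacaataaact
EGR1, human hg38, chr5:138469068-138469097, plus strand: aaatgtaaATTTAtaaatatattcaggagt
KHSRP, human hg38, chr19:6413214-6413243, minus strand: tgattgaaATTTAcaaactttgtgtttttt

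The densest 3′UTR of the human members was that of ZFP36, with 5 pentamers in 708 bases or 7.06 per kb, a density above that of 96.7% of the 17319 human 3′UTRs searched. FOS followed with 5 pentamers in 806 bases (6.20 per kb), and ZFP36L1 had 8 in 1871 bases (4.28 per kb). The most pentamers, 13, lay in the long ELAVL1 3′UTR of 4910 bases, at only 2.65 per kb, near the 2.34 per kb of JUN. At the other end were EGR1, with 1 pentamer in 1222 bases (0.818 per kb), and KHSRP, with 1 in 1922 bases (0.52 per kb). The median of all human 3′UTRs was 1.63 per kb. The nonamer occurred in 8.97% of human 3′UTRs and once in each of ZFP36, ZFP36L1, ZFP36L2, ELAVL1 and FOS. Among 3′UTRs within 20% of the same length, the share holding it was 5.21% for ZFP36, 5.06% for FOS and 21.2% for ELAVL1. MYC (6 pentamers), JUN (3), MYCN (2), EGR1 and KHSRP held none of these letters. In the mouse the same genes carried the nonamer, 8 times in Elavl1 and once in the others. The human transcript was the MANE Select one where marked. Mouse transcripts lack that mark, so the one with the longest 3′UTR in the GENCODE basic set was taken. The number of matches depends on the transcript chosen, so the counts of the species are not on an equal footing, and a match is not evidence of binding.

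The labelled identities of mESC, neurons and liver bud progenitors were checked on markers in the cytoplasm libraries. That of HEK293T was not checked. All 8 pluripotency genes tested were detected in mESC, with Pou5f1 at 652 counts per 1000000 (CPM) and Nanog at 706. Neurons had MAP2 at 2940 and DCX at 4800 CPM but also the progenitor gene NES at 196. All 10 liver bud genes were at or above 1 CPM in liver bud progenitors, HNF4A at 38.9 and AFP at 8.04, beside the pluripotency genes POU5F1 at 85.8 and NANOG at 34.4. All 8 neuron genes and 5 of 6 fibroblast or mesenchyme genes were also at or above 1 CPM there, with DCX at 63.6 and COL1A1 at 136. The same 5 fibroblast or mesenchyme genes reached 1 CPM in neurons, with COL1A2 at 42.1. All 5 neural progenitor genes did so in neurons, and 4 of 5 in liver bud progenitors. Library totals ranged from 6368953 to 17972284 counts, so that 3 counts, the floor used here, corresponded to 0.167 to 0.471 CPM. Ribosomal RNA genes took 3.09% to 13.4% of counts in P-body libraries and 9.63% to 24.9% in cytoplasm libraries. Below, CPM within a cell type are scaled by TMM over its 4 libraries, and a gene is called enriched or depleted where edgeR's quasi-likelihood test of P-body against cytoplasm gave a Benjamini-Hochberg adjusted p under 0.05 over all genes tested. Values are means ± SD over 2 libraries and log2 changes are ± SE.

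No cell type had all 10 transcripts called in 1 direction, and ZFP36L1, MYC and JUN were called in opposite directions in HEK293T and liver bud progenitors, a difference that was not tested. In HEK293T, 4 members were enriched in P-bodies (ZFP36L1, MYC, FOS and JUN) and 1 was depleted (KHSRP), where 19.3% of all 21903 genes were enriched and 22.8% depleted. Liver bud progenitors had no enriched member and 6 depleted members (ZFP36, ZFP36L1, KHSRP, MYC, JUN and EGR1), against a background of 21.4% enriched and 17.1% depleted. Neurons had 2 depleted members (KHSRP and EGR1) and none enriched, with 14.6% of genes enriched and 14.1% depleted. The 2 neuron P-body libraries were the least alike of all replicate pairs. Their chi-square per gene, a measure of how far counts depart from shares of the library totals, was 24.8. It was 2.15 to 6.69 for the other pairs, and its part in the number of neuron calls was not tested. Mouse ES cells had 2 enriched members (Zfp36l1 and Elavl1) and 1 depleted member (Khsrp), with 25.8% of genes enriched and 20.6% depleted. Calls are more frequent among well-expressed genes: of genes averaging 20 CPM or more, 50.9% were enriched and 34% depleted in HEK293T, and 53.4% and 27.4% in liver bud progenitors. The same shares were 31.1% and 37.4% in neurons and 54.1% and 25% in mESC. With library sizes in place of TMM, 3822 genes were enriched and 4850 depleted in liver bud progenitors (4708 and 3747 with TMM), 3839 and 2356 in neurons (3220 and 3123) and 2591 and 6609 in mESC (4104 and 3271), while the members called were 0 and 7, 0 and 2, and 2 and 1. KHSRP was the single member called in all 4 cell types. The labels do not say whether replicates came from separate cultures, so the tests measure the spread between these libraries.

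**Figure D1:**
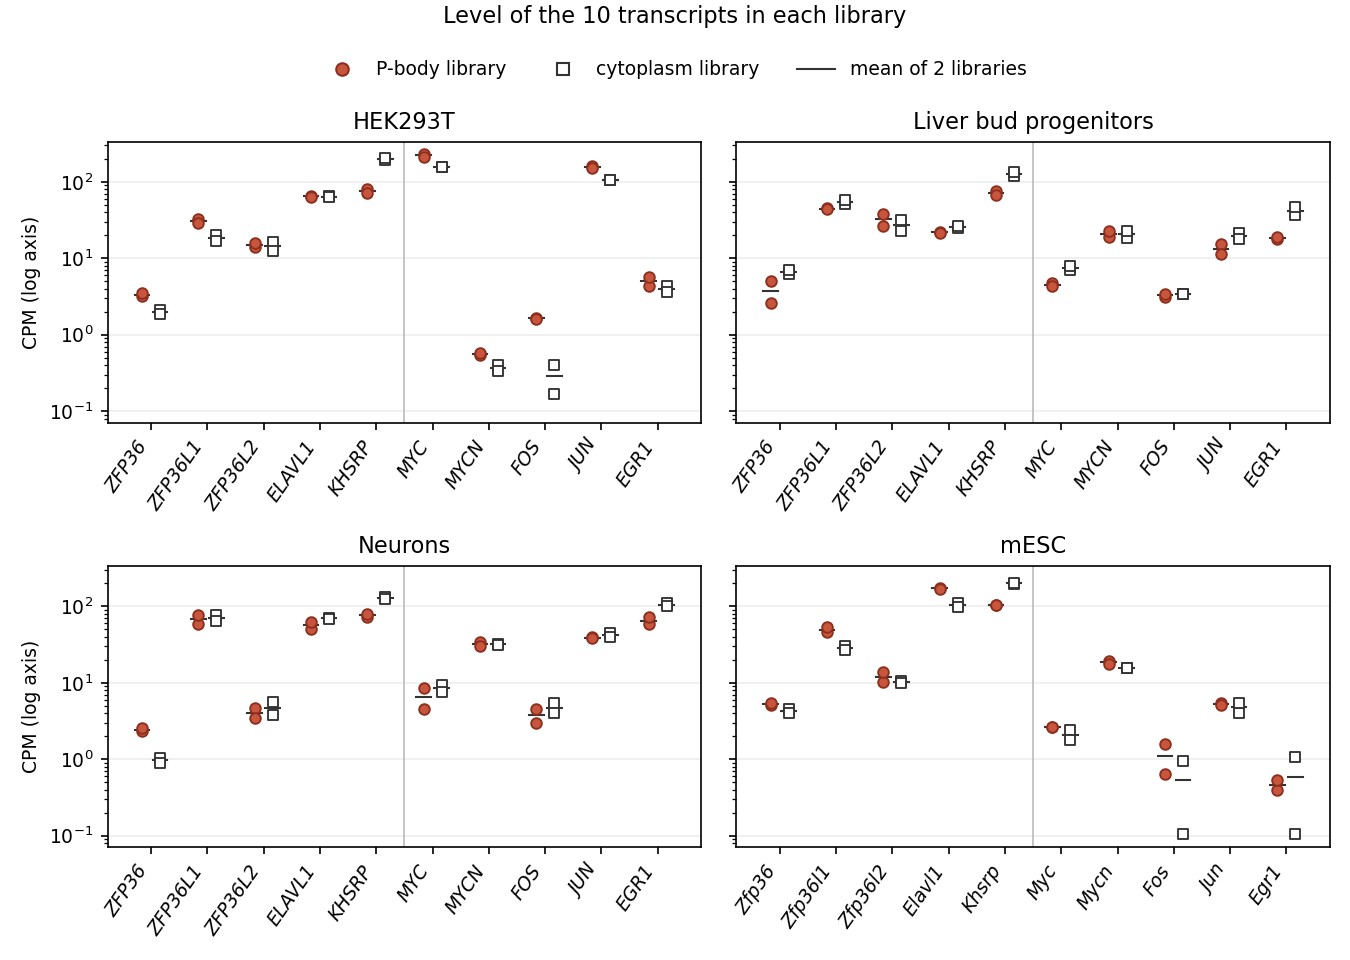
Level of each of the 10 transcripts in CPM (log axis) in every library, with P-body libraries as filled circles, cytoplasm libraries as open squares and the mean of 2 libraries as a bar; a vertical line separates the binders from the immediate-early and MYC genes. KHSRP lay lower in P-body than in cytoplasm libraries in all 4 panels, while MYC and JUN lay higher in P-bodies in HEK293T and lower in liver bud progenitors.

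KHSRP (chromosome 19, 6413102 to 6424811, minus strand) was depleted from P-bodies in every cell type. In HEK293T it reached 81.0 and 72.0 CPM in the P-body libraries against 190 and 203 CPM in cytoplasm, for a log2 change of -1.36 ± 0.07 (edgeR adjusted p = 8.09e-25), or 2.57-fold lower. The libraries of the fractions were far apart, and 11.5% of genes had a change as low. Liver bud progenitors gave 76.4 and 67.8 CPM in P-bodies and 118 and 133 CPM in cytoplasm, for a log2 change of -0.80 ± 0.08 (edgeR adjusted p = 6e-13). Neurons gave 72.7 and 79.1 CPM against 133 and 126 CPM, a log2 change of -0.77 ± 0.12 (edgeR adjusted p = 0.000211). In mESC the P-body libraries held 105 and 104 CPM and the cytoplasm libraries 197 and 203 CPM, for a log2 change of -0.94 ± 0.05 (edgeR adjusted p = 3.25e-13). The fractions did not overlap in any cell type, and the call held under every alternative tried, including the removal of any single library, where the log2 change stayed between -1.45 and -0.71. KHSRP also had the lowest pentamer density and, at 51.6%, the highest GC content of the human 3′UTRs examined among the members.

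ZFP36L1 (chromosome 14, 68787660 to 68796253, minus strand), the paralog with the highest level per kb in every cell type, was enriched in P-bodies of both total RNA cell types and depleted, by less, in liver bud progenitors. HEK293T P-bodies held 32.8 and 28.7 CPM against 20.3 and 16.9 CPM in cytoplasm, for a log2 change of 0.72 ± 0.14 (edgeR adjusted p = 6.61e-06). In mESC, Zfp36l1 had 45.9 and 53.3 CPM in P-bodies and 29.8 and 26.9 CPM in cytoplasm, for a log2 change of 0.81 ± 0.11 (edgeR adjusted p = 6.74e-07). Every P-body library thus lay above every cytoplasm library in these cells. Liver bud progenitors showed the opposite order, 45.6 and 43.5 CPM in P-bodies below 52.0 and 58.1 CPM in cytoplasm, with a small log2 change of -0.31 ± 0.10 (edgeR adjusted p = 0.0143). Neurons gave overlapping libraries, 58.5 and 76.6 CPM against 77.5 and 65.1 CPM, and a log2 change of -0.08 ± 0.16 (edgeR adjusted p = 0.747).

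ZFP36 (chromosome 19, 39406847 to 39409412, plus strand), whose protein gave the family its name, was scarce in all cells. Its P-body libraries in HEK293T had 3.22 and 3.48 CPM (47 and 60 counts) and its cytoplasm libraries 2.09 and 1.87 CPM (26 and 22 counts). They did not overlap, yet the log2 change of 0.76 ± 0.33 missed the threshold (edgeR adjusted p = 0.0579). It passed with RLE size factors (edgeR adjusted p = 0.032) and with the filterByExpr filter (edgeR adjusted p = 0.0344). It did not pass with library sizes (0.63, edgeR adjusted p = 0.129), and it ranged from 0.69 to 0.87 when single libraries were left out. In neurons the P-body level was 2.44 ± 0.180 CPM and the cytoplasm level 0.969 ± 0.0982 CPM, from 47 and 20 counts in all, a log2 change of 1.32 ± 0.78 that was not called (edgeR adjusted p = 0.228). Liver bud progenitors had 2.58 and 4.97 CPM in P-bodies and 6.15 and 7.08 CPM in cytoplasm, for a log2 change of -0.80 ± 0.32 (edgeR adjusted p = 0.0364). The P-body libraries were far apart, though both lay below the cytoplasm libraries. Without P-body replicate 1 the log2 change was -0.42 (adjusted p = 0.416). In mESC the log2 change was 0.28 ± 0.25 (edgeR adjusted p = 0.376), from 5.25 ± 0.187 and 4.31 ± 0.374 CPM.

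ZFP36L2 (chromosome 2, 43222402 to 43226606, minus strand) was called in no cell type. Its log2 changes were 0.04 ± 0.16 in HEK293T and 0.24 ± 0.19 in mESC, 0.27 ± 0.15 in liver bud progenitors and -0.21 ± 0.49 in neurons, and P-body and cytoplasm libraries overlapped in each. Among the liver bud progenitor libraries, the P-body values of 26.8 and 38.3 CPM spread as widely as the cytoplasm values of 22.5 and 31.2 CPM. ZFP36L1 alone of the 3 paralogs was called in HEK293T and mESC, but the difference between paralogs itself was not tested.

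ELAVL1 (chromosome 19, 7958573 to 8005659, minus strand), the stabilising binder, had nearly equal CPM in the fractions of HEK293T. Its P-body libraries had 64.9 and 63.9 CPM and its cytoplasm libraries 64.4 and 62.5 CPM, a log2 change of 0.02 ± 0.09 (edgeR adjusted p = 0.901). In mESC, by contrast, Elavl1 was enriched, with 174 and 168 CPM in P-bodies against 109 and 96.9 CPM in cytoplasm, for a log2 change of 0.74 ± 0.06 (edgeR adjusted p = 2.89e-10). This gap was many times the spread between libraries. Liver bud progenitors (21.8 ± 0.392 against 25.7 ± 0.795 CPM) and neurons (56.2 ± 9.08 against 69.7 ± 0.752 CPM) had log2 changes of -0.24 ± 0.15 and -0.31 ± 0.15, neither of them called, and their P-body libraries lay below the cytoplasm libraries. ELAVL1 was called depleted in liver bud progenitors with filterByExpr (-0.33, adjusted p = 0.0461) and library sizes (-0.43, adjusted p = 0.0143), and in neurons in the fit of all human libraries (-0.42, adjusted p = 0.00768) and without P-body replicate 2 (-0.49, adjusted p = 0.00862). Ccl25, on the other strand of mouse Elavl1, had 1 to 13 counts per library beside 935 to 1773 for Elavl1.

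MYC (chromosome 8, 127735434 to 127742951, plus strand), the growth-promoting transcription factor, was among the more abundant members in HEK293T and scarce elsewhere. HEK293T P-bodies held 229 and 213 CPM and the cytoplasm 154 and 155 CPM, a log2 change of 0.52 ± 0.06 (edgeR adjusted p = 2.59e-10). The fractions did not overlap, and the change ranged from 0.46 to 0.57 when single libraries were left out. Liver bud progenitors had 4.71 and 4.35 CPM in P-bodies and 7.03 and 7.97 CPM in cytoplasm, from 42 to 63 counts, for a log2 change of -0.73 ± 0.29 (edgeR adjusted p = 0.037). In neurons the libraries overlapped (8.49 and 4.55 CPM against 9.44 and 7.50 CPM), with a log2 change of -0.38 ± 0.41 (edgeR adjusted p = 0.517). Leaving out single libraries moved it between -0.90 and 0.00, and it was called without P-body replicate 1 (-0.90, adjusted p = 0.0486). In mESC Myc had 2.65 ± 0.0131 CPM in P-bodies and 2.1 ± 0.483 CPM in cytoplasm, for a log2 change of 0.33 ± 0.37 (edgeR adjusted p = 0.485).

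MYCN (chromosome 2, 15940550 to 15947007, plus strand), the paralog used in embryonic and neural tissue, had a higher cytoplasmic level per kb than MYC in the other cell types and a lower one in HEK293T. It stood at 18.2 to 34.3 CPM in the libraries of liver bud progenitors and neurons and at 15.6 to 19.3 CPM in those of mESC, and HEK293T libraries held 4 to 10 counts. It was equally represented in P-bodies and cytoplasm of liver bud progenitors, with a log2 change of 0.01 ± 0.16, and of neurons, with 0.02 ± 0.18. In mESC both P-body libraries (19.3 and 17.7 CPM) were above both cytoplasm libraries (15.6 and 15.7 CPM), but the log2 change of 0.24 ± 0.15 was not called (edgeR adjusted p = 0.205). MYCNOS, transcribed from the opposite strand, had 0 to 13 counts per human library.

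FOS (chromosome 14, 75278826 to 75282230, plus strand), which pairs with JUN in the AP-1 transcription factor, had the largest log2 change of the members in HEK293T but few reads. In HEK293T it had 24 and 28 counts (1.65 and 1.62 CPM) in P-bodies against 5 and 2 counts (0.402 and 0.170 CPM) in cytoplasm, for a log2 change of 2.47 ± 0.63 (edgeR adjusted p = 0.000798). The summed counts were 52 against 7, which, divided by the library totals, gave a ratio of P-body to cytoplasm of 5.17 with a 95% exact interval from 2.34 to 13.5 for counting error. Fos was also low in mESC, where P-body libraries had 16 and 6 counts and cytoplasm libraries 9 and 1, a ratio per library total of 1.61 with an interval from 0.734 to 3.82. Its libraries overlapped, and the log2 change of 1.06 ± 0.78 was not called (edgeR adjusted p = 0.279) except without cytoplasm replicate 1 (3.27, adjusted p = 0.037). FOS levels in liver bud progenitors were alike in the fractions, 3.28 ± 0.196 and 3.39 ± 0.0335 CPM, and in neurons they overlapped, at 3.75 ± 1.1 and 4.74 ± 1.04 CPM.

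JUN (chromosome 1, 58776845 to 58784048, minus strand), the partner of FOS, had the same calls as MYC. It was enriched in HEK293T P-bodies, at 162 and 151 CPM against 104 and 107 CPM in cytoplasm, for a log2 change of 0.57 ± 0.07 (edgeR adjusted p = 2.63e-10). It was depleted in liver bud progenitors, at 15.3 and 11.3 CPM against 21.4 and 18.0 CPM, a log2 change of -0.57 ± 0.18 (edgeR adjusted p = 0.00868). The fractions did not overlap in either cell type. Neurons had 39.5 and 38.1 CPM in P-bodies and 45.1 and 39.8 CPM in cytoplasm, for a log2 change of -0.13 ± 0.16, and mESC had 5.34 ± 0.240 and 4.76 ± 1.03 CPM, a log2 change of 0.16 ± 0.25, neither of which was called.

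EGR1 (chromosome 5, 138465479 to 138469303, plus strand), a zinc finger transcription factor and standard readout of growth factor and synaptic signalling, was the immediate-early member most depleted from P-bodies. Liver bud progenitors had 17.8 and 18.8 CPM in P-bodies and 36.7 and 46.3 CPM in cytoplasm, for a log2 change of -1.18 ± 0.14 (edgeR adjusted p = 3.7e-11). Neurons had 58.8 and 71.5 CPM in P-bodies and 111 and 99.6 CPM in cytoplasm, for a log2 change of -0.69 ± 0.13 (edgeR adjusted p = 0.00165). Both differences exceeded the spread between libraries. HEK293T libraries overlapped at 4.32 and 5.75 CPM against 4.34 and 3.66 CPM, with a log2 change of 0.34 ± 0.26 (edgeR adjusted p = 0.341). Mouse Egr1 was near the floor, with 1 to 10 counts per library.

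Of the 6 calls in liver bud progenitors, 4 (ZFP36, ZFP36L1, MYC and JUN) were not made by DESeq2, with adjusted p from 0.0843 to 0.186, and KHSRP and EGR1 remained. The fit of all human libraries also lost ZFP36 (-0.83, adjusted p = 0.155) and ZFP36L1 (-0.33, adjusted p = 0.116). The MYC call was also lost without each of the 4 libraries in turn (log2 change -0.82 to -0.67). That of ZFP36 was lost without P-body replicate 1 or either cytoplasm library (-0.90 to -0.42). ZFP36L1 lost its call without P-body replicate 2 (-0.27) or cytoplasm replicate 2 (-0.26), and JUN without P-body replicate 2 (-0.36) or cytoplasm replicate 1 (-0.44).

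**Figure D2:**
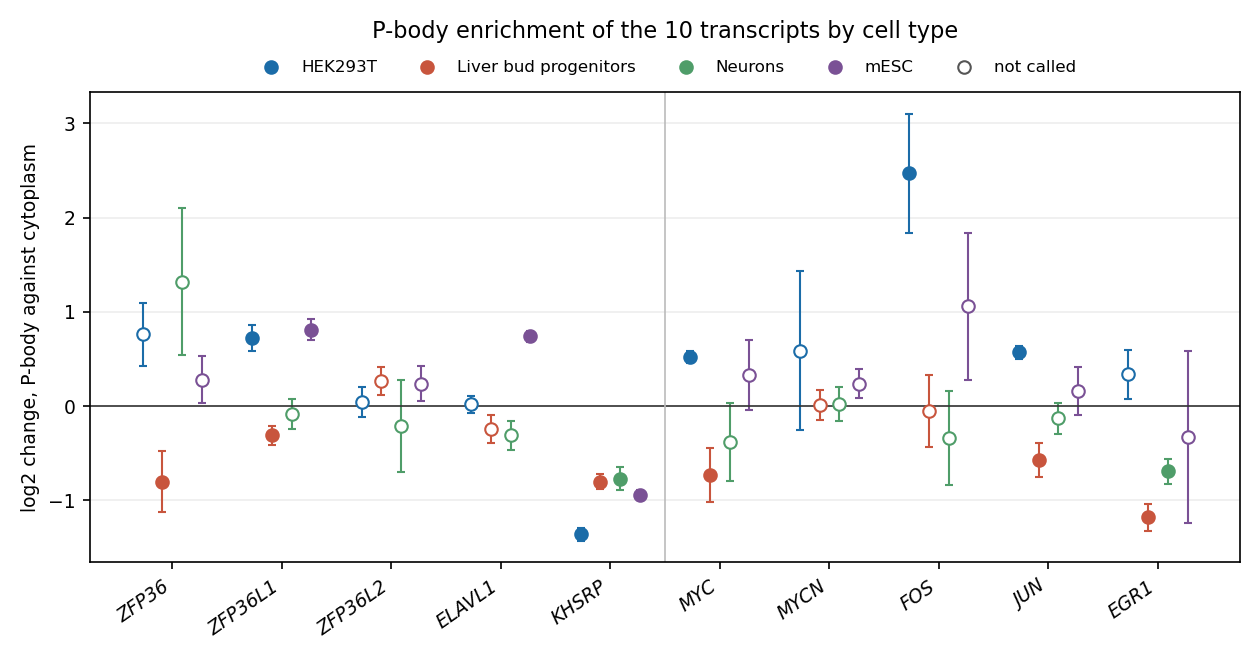
Log2 change of P-body against cytoplasm (vertical axis, edgeR, bars ± SE) for each of the 10 transcripts in the 4 cell types; filled points passed an adjusted p of 0.05 and open points did not. KHSRP is a filled point between -1.36 and -0.77 in all 4 cell types, whereas ZFP36L1, MYC and JUN are filled above 0 in HEK293T (0.72, 0.52 and 0.57) and filled below 0 in liver bud progenitors (-0.31, -0.73 and -0.57).

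Liver bud progenitors and neurons share line, molecule label and kit, so the difference in P-body enrichment between them was tested as an interaction over 8 libraries. Only ZFP36 was called, with an enrichment higher in neurons by 2.12 ± 0.70 on the log2 scale (edgeR adjusted p = 0.0485), where 9.21% of 22268 genes had a higher enrichment in neurons and 8.5% a higher one in liver bud progenitors. With library sizes alone, 3520 genes were called in the direction of neurons and 940 in the other, against 2050 and 1892 with TMM. The level of ZFP36 behind the call was low, 9 to 56 counts per library. The call was lost with DESeq2 (adjusted p = 0.0982), without the ribosomal RNA genes (adjusted p = 0.0518) and without 6 of the 8 libraries in turn. For EGR1 the difference was 0.48 ± 0.21 (edgeR adjusted p = 0.126). It passed with filterByExpr (0.63, adjusted p = 0.0446), with library sizes (0.84, adjusted p = 0.00874) and without neuron P-body replicate 1 (0.52, adjusted p = 0.0296). For JUN it was 0.43 ± 0.26 (edgeR adjusted p = 0.282), called with library sizes (0.79, adjusted p = 0.0426). KHSRP differed by 0.02 ± 0.15 and MYCN by 0.00 ± 0.26.

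Cytoplasmic levels of most members differed between these cell types. Comparing neuron cytoplasm with liver bud progenitor cytoplasm, 6 members were higher in neurons and 2 lower, on a background of 26% and 25.8% of 21900 genes. Of genes averaging 20 CPM or more, 46.8% were higher in neurons and 37.3% lower. With library sizes in place of TMM, 4173 genes were higher in neurons and 7270 lower, against 5696 and 5648. In these bulk libraries fewer cells of a type and less RNA per cell cannot be told apart. EGR1 reached 114 ± 8.6 CPM in neurons and 38.8 ± 6.39 CPM in liver bud progenitors, a log2 difference of 1.55 ± 0.11 (edgeR adjusted p = 1.63e-20). JUN was at 45.8 ± 4.08 and 18.4 ± 2.21 CPM, a log2 difference of 1.32 ± 0.15 (edgeR adjusted p = 4.29e-12), and MYCN at 34.5 ± 0.902 and 19.1 ± 3.09 CPM, a log2 difference of 0.85 ± 0.16 (edgeR adjusted p = 3.82e-06). Both were thus higher in neurons by more than the spread between libraries. With library sizes 4 members, not 6, were called higher in neurons, since ZFP36L1 and KHSRP were not.

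Of the binders, ELAVL1 was at 75.3 ± 0.811 CPM in neuron cytoplasm and 24.0 ± 0.8 CPM in liver bud progenitor cytoplasm, a log2 difference of 1.65 ± 0.13 (edgeR adjusted p = 4.36e-19). ZFP36L1 was at 77.0 ± 9.49 and 51.4 ± 4.13 CPM, a log2 difference of 0.58 ± 0.12 (edgeR adjusted p = 1.05e-05) that was lost with library sizes in place of TMM (0.20, adjusted p = 0.18). The ZFP36 family was divided, since its other members were lower in neurons. ZFP36L2 fell from 25.1 ± 5.80 CPM in liver bud progenitors to 5.06 ± 1.35 CPM in neurons, a log2 difference of -2.31 ± 0.22 (edgeR adjusted p = 3.51e-15), and ZFP36 from 6.18 ± 0.631 to 1.05 ± 0.106 CPM, a log2 difference of -2.55 ± 0.42 (edgeR adjusted p = 2.82e-07). KHSRP was called with a small log2 difference of 0.26 ± 0.09 (edgeR adjusted p = 0.0152), a call that DESeq2 (adjusted p = 0.116) and the fit of all human libraries (adjusted p = 0.0917) did not make and that turned to -0.13 with library sizes in place of TMM. It was also lost without liver bud progenitor cytoplasm replicate 1 (0.17) and without neuron cytoplasm replicate 1 (0.21). MYC and FOS, with log2 differences of 0.38 ± 0.26 and 0.69 ± 0.35, were not called, except FOS without neuron cytoplasm replicate 2 (0.89, adjusted p = 0.0481).

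Levels were compared between genes only as CPM per kb of the representative transcript, in the cytoplasm. Evenness of coverage along the transcripts was not tested. KHSRP ranked first in HEK293T (46.0 ± 2.15 CPM per kb), among liver bud progenitors (29.3 ± 2.48) and in mESC (50.3 ± 1.07). In neurons EGR1 ranked first at 33.6 ± 2.57 CPM per kb, above KHSRP at 30.3 ± 1.16. MYC and JUN followed KHSRP in HEK293T at 41.5 ± 0.190 and 32.4 ± 0.651 CPM per kb, whereas MYC was ninth in liver bud progenitors at 2.02 ± 0.179. The ZFP36 paralogs kept the order ZFP36L1, ZFP36L2, ZFP36 in all 4 cell types, with 6.17, 3.9 and 1.13 CPM per kb in HEK293T. FOS was last in HEK293T (0.136 ± 0.0780) and liver bud progenitors (1.61 ± 0.0134), ZFP36 in neurons (0.555 ± 0.0567) and Egr1 in mESC (0.130 ± 0.151). Neighbours whose libraries overlapped were EGR1 and ZFP36 and also MYCN and FOS in HEK293T, MYCN, ZFP36L2 and JUN in liver bud progenitors, JUN and MYCN and also MYC and FOS in neurons, and Zfp36 and Jun and also Fos and Egr1 in mESC.

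The P-body change was then set beside the density of ATTTA in the 3′UTRs introduced above. Across the 10 human genes in HEK293T, pentamers per kb and log2 change had a Pearson r of 0.72 and a Spearman rho of 0.70. FOS (6.20 per kb, log2 change 2.47) and KHSRP (0.52 per kb, log2 change -1.36) lay at the ends, and without KHSRP the r was 0.64. In mESC, r was 0.85 and rho 0.92, and 0.78 and 0.89 without Khsrp. Neurons gave 0.74 and 0.47, with a rho of 0.27 without KHSRP, and liver bud progenitors 0.21 and 0.17. Points at the dense end have few reads, FOS with 7 cytoplasm counts in HEK293T. Neither Fos in mESC, with 10 cytoplasm counts, nor ZFP36 in neurons, with 20, was called. These are descriptions over 10 genes that share libraries and include a paralog family, and the human cell types share the same 3′UTRs. For GC content of the 3′UTR, r was -0.69 in HEK293T (-0.27 without KHSRP), -0.53 in mESC (-0.10 without Khsrp), -0.46 in liver bud progenitors (-0.44) and -0.14 in neurons (0.37). Its part in the relation was not tested.

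**Figure D3:**
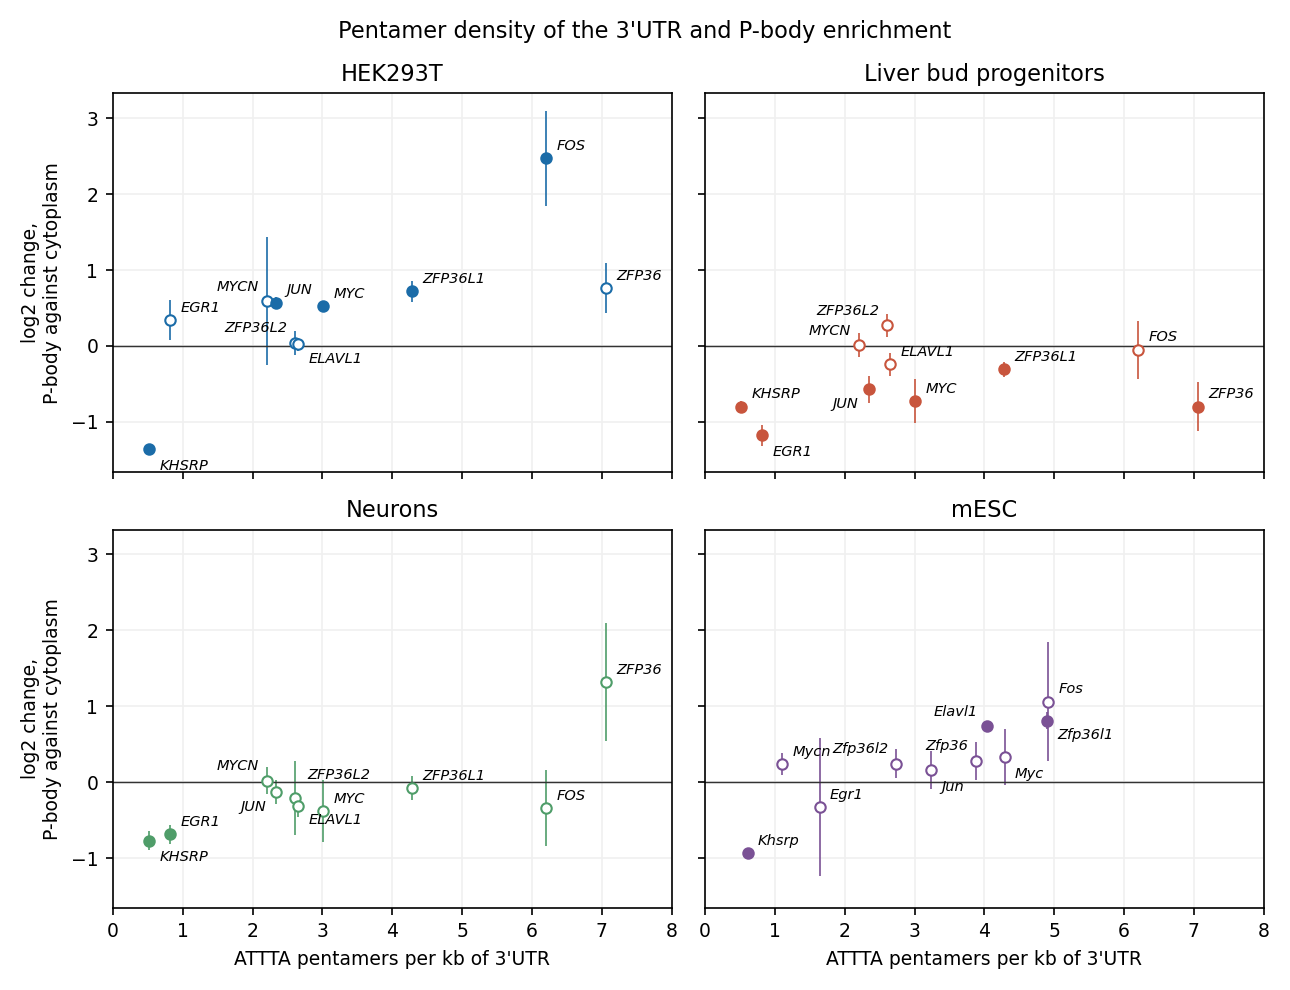
Log2 change of P-body against cytoplasm (vertical axis) against ATTTA pentamers per kb of 3′UTR (horizontal axis) for the 10 transcripts in each cell type; filled points passed an adjusted p of 0.05 and bars are ± SE. KHSRP, with the sparsest 3′UTR, lies below 0 in each panel, and the dense 3′UTRs of FOS and ZFP36 lie high in HEK293T but not in liver bud progenitors, where ZFP36 is at -0.80.

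Presence of the nonamer, a different measure from pentamer density, was described across the wider transcriptome. Among HEK293T genes at or above 1 CPM, the median log2 change was -0.20 for 10563 genes without the nonamer and 0.36 for 929 genes with 1. In liver bud progenitors the medians were 0.06 and 0.31, in neurons -0.17 and 0.25 and in mESC 0.02 and 0.32. Genes with 2 or more nonamers had medians no higher than those with 1, at 0.35 in HEK293T and 0.29 in mESC, and at 0.20 in liver bud progenitors and 0.23 in neurons. The 3′UTRs with 1 nonamer were longer, with a median of 3098 against 1363 bases in HEK293T, and had less GC, 37.6% against 41.7%. Within tertiles of 3′UTR GC content, the medians of HEK293T genes without and with a nonamer were 0.43 and 0.58 in the lowest tertile, 0.02 and 0.36 in the middle tertile and -0.87 and -0.52 in the highest. Liver bud progenitors gave 0.66 and 0.69, 0.14 and 0.22, and -0.49 and -0.59. The GC tertile thus went with a larger difference than the nonamer in both cell types. Of the members, 9 fell in the middle tertile in the human cells and KHSRP in the highest.

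Other genes of the same roles give the setting of the members. A list of other binders of AU-rich or U-rich RNA held 18 genes, among them RC3H2, whose protein binds another element. Of the 18, 9 were enriched and 5 depleted in HEK293T (median log2 change 0.50, against -0.01 for all genes and 0.25 for genes at or above 20 CPM). RC3H2, a Roquin paralog that binds stem-loop decay elements, had 1910 ± 29.1 CPM in HEK293T P-bodies and 741 ± 27.1 CPM in cytoplasm, for a log2 change of 1.37 ± 0.05 (edgeR adjusted p = 8.72e-33). It was enriched in the other cells as well, with log2 changes of 1.23 ± 0.05 in liver bud progenitors, 1.33 ± 0.04 in mESC and 0.91 ± 0.09 in neurons. HNRNPAB was depleted in HEK293T (-0.99 ± 0.10) and mESC (-0.60 ± 0.06), and in neurons (-1.11 ± 0.21) and liver bud progenitors (-0.50 ± 0.15). HNRNPD (AUF1), a decay-promoting binder like KHSRP, was depleted in HEK293T (-0.88 ± 0.09), liver bud progenitors (-0.48 ± 0.12) and neurons (-0.59 ± 0.15), and Hnrnpd was not called in mESC. Counts for the list were 10 enriched and 4 depleted in liver bud progenitors (median 0.41, all genes -0.09), 12 and 2 in mESC (0.54, all genes -0.11) and 4 and 7 in neurons (0.01, all genes 0.19). Most of these genes are well expressed. Over all genes at or above 20 CPM the medians were 0.33 in liver bud progenitors, 0.28 in mESC and -0.16 in neurons. The 55.6% enriched in liver bud progenitors is near the 53.4% of such genes. In HEK293T 50% of the list was enriched and 27.8% depleted, against 50.9% and 34% of such genes. For mESC the shares were 66.7% and 11.1%, against 54.1% and 25%, and for neurons 22.2% and 38.9%, against 31.1% and 37.4%.

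The neuronal paralogs of ELAVL1 were split in neurons. ELAVL2 was enriched at 96.8 ± 9.71 against 32.7 ± 4.48 CPM, a log2 change of 1.56 ± 0.15 (edgeR adjusted p = 5.4e-06), and ELAVL4 at 258 ± 1.75 against 122 ± 2.86 CPM, a log2 change of 1.08 ± 0.09 (edgeR adjusted p = 2.04e-06). ELAVL3 was depleted, at 259 ± 8.59 against 442 ± 18.7 CPM, a log2 change of -0.77 ± 0.08 (edgeR adjusted p = 1.4e-05). ELAVL1 itself, at -0.31 ± 0.15, was not called. Elavl2 was also enriched in mESC, with a log2 change of 1.53 ± 0.09 (edgeR adjusted p = 9.61e-13). In the interaction test ELAVL4 was higher in neurons by 1.12 ± 0.35 (edgeR adjusted p = 0.0372) and ELAVL3 higher in liver bud progenitors by a log2 change of -1.81 ± 0.13 (edgeR adjusted p = 2.79e-07), though ELAVL4 had only 1.67 ± 0.817 CPM in liver bud progenitor cytoplasm.

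Of 36 other immediate-early genes, 35 were tested in each human cell type. In HEK293T 12 were enriched and 3 depleted (median log2 change 0.59), with PPP1R15A, a phosphatase subunit of the stress response, at 1.56 ± 0.13 (edgeR adjusted p = 2.11e-16). Liver bud progenitors had 6 enriched and 7 depleted (median -0.25), including, among those above 20 CPM, KLF10 at 0.92 ± 0.10 and the AP-1 gene FOSL2 at -1.02 ± 0.12. Neurons had 4 enriched and 4 depleted (median 0.24), including BTG1 at 1.76 ± 0.24 and IER2 at -1.08 ± 0.23. In mESC 11 of 31 were enriched and 1, Mcl1, was depleted (-0.46 ± 0.06). KLF10, a TGF-beta-induced factor, was also enriched in HEK293T (1.32 ± 0.08), mESC (1.22 ± 0.06) and neurons (1.23 ± 0.18). The interaction called 4 of 35 (11.4%) in the direction of neurons and 0 in the other, against 9.21% and 8.5% of all genes. In neuron cytoplasm 12 of 35 were higher and 15 lower (34.3% and 42.9%), against 26% and 25.8% of all genes. Over all genes the median was -0.01 in HEK293T, with 19.3% enriched and 22.8% depleted, against 34.3% and 8.57% of this list. In liver bud progenitors 17.1% of the list was enriched and 20% depleted, near the 21.4% and 17.1% of all genes. Both shares of the list were 11.4% in neurons, near the 14.6% and 14.1% of all genes. For mESC they were 35.5% and 3.23%, against 25.8% and 20.6% of all genes. Most of the list was scarce: 10 of the 35 reached 20 CPM in HEK293T.

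The partners and antagonists of MYC numbered 10. In HEK293T 4 were enriched and 3 depleted (median log2 change -0.12), MXD1 at 1.11 ± 0.08 and MLXIP at -1.54 ± 0.12 being the extremes. MXI1, which competes with MYC for MAX, was enriched in HEK293T (0.83 ± 0.07) and mESC (0.97 ± 0.11), in liver bud progenitors (1.03 ± 0.09) and in neurons (0.89 ± 0.15). MLXIP, a glucose-sensing relative, was depleted in all 4, at -0.88 ± 0.12 in liver bud progenitors, -0.76 ± 0.11 in mESC and -0.71 ± 0.15 in neurons. Counts were 2 enriched and 3 depleted in liver bud progenitors, 5 and 1 in mESC, and 2 and 4 in neurons, with medians of -0.02, 0.28 and -0.21. All-gene medians were -0.01 in HEK293T, -0.09 in liver bud progenitors, -0.11 in mESC and 0.19 in neurons. All genes were 21.4% enriched and 17.1% depleted in liver bud progenitors, 25.8% and 20.6% in mESC, and 14.6% and 14.1% in neurons. In HEK293T 7 of the 10 genes reached 20 CPM, where 50.9% of genes were enriched and 34% depleted. In neurons 8 of the 10 did, where 31.1% of genes were enriched and 37.4% depleted, against 20% and 40% of the list.

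Of 20 other transcripts known for AU-rich elements, 18 were tested in HEK293T, with 8 enriched and 6 depleted (median log2 change 0.34). VEGFA, the angiogenic growth factor, was enriched there (0.90 ± 0.10) and depleted in liver bud progenitors (-0.91 ± 0.17), the same pattern as MYC and JUN. HMGA2, a chromatin protein of embryonic cells, did the reverse, at -0.94 ± 0.09 in HEK293T and 1.25 ± 0.06 in liver bud progenitors. The list had 8 enriched and 4 depleted of 18 in liver bud progenitors, 6 and 2 of 14 in mESC, and 3 and 2 of 16 in neurons, with medians of 0.24, 0.50 and -0.01. In HEK293T 44.4% of the list was enriched and 33.3% depleted, against 19.3% and 22.8% of all genes and 50.9% and 34% of those at or above 20 CPM. Heat shock transcripts, read as a sign of stress in handling, did not all move one way between the fractions: 2 were enriched and 4 depleted of 7 in HEK293T, 3 and 1 of 6 in mESC, 3 and 1 of 7 in liver bud progenitors, and 1 and 2 of 7 in neurons. The shares of all genes enriched and depleted were 19.3% and 22.8%, 25.8% and 20.6%, 21.4% and 17.1%, and 14.6% and 14.1% in the same order. The part of handling in the level of immediate-early transcripts was not tested.

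**Figure D4:**
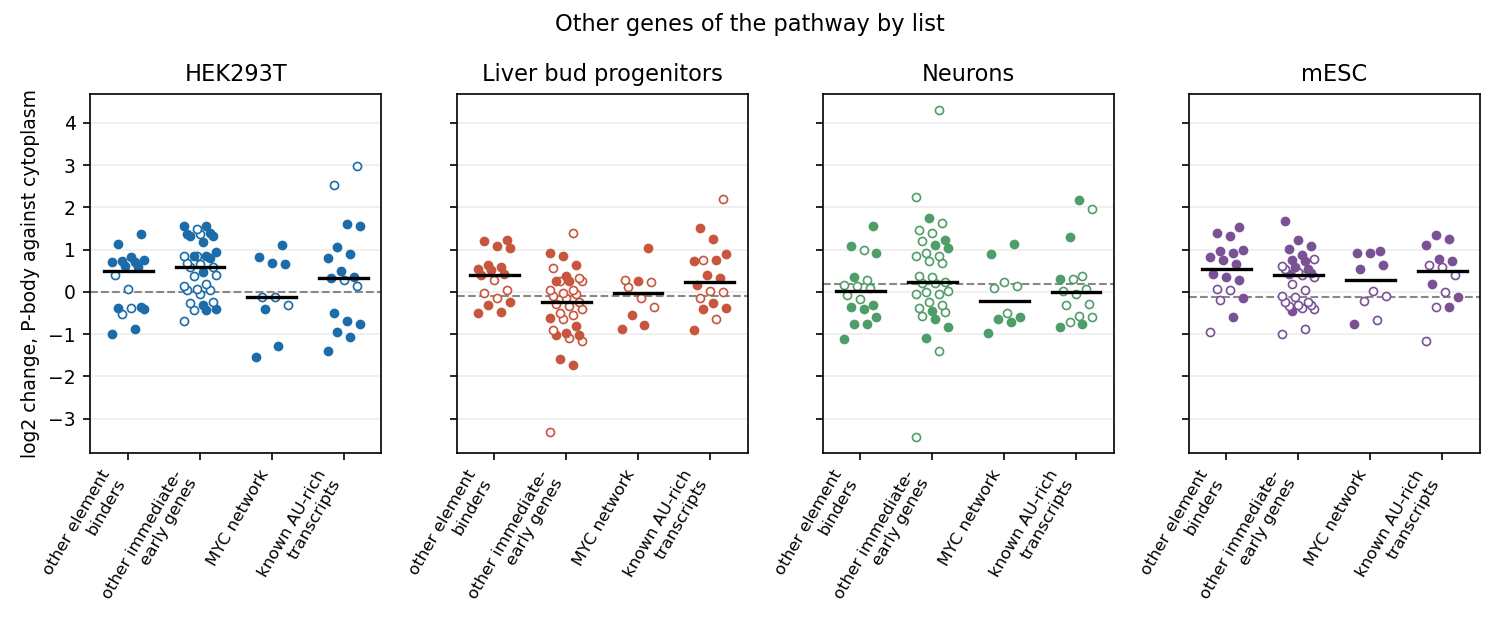
Log2 change of P-body against cytoplasm for each gene of the listed groups in the 4 cell types, with filled points called and open points not called, a bar at the median of each group and a dashed line at the median of all genes. Each group holds genes on both sides of 0, and the medians of the other binders are 0.50 for HEK293T, 0.41 for liver bud progenitors, 0.01 for neurons and 0.54 for mESC.

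Across the 12 human libraries, the 3 genes whose log2 CPM ran closest to MYC among 6920 genes at or above 20 CPM were LOC114483834 (Pearson r = 0.992), RRP1B (0.990) and PAG1 (0.990). Those closest to JUN were MAGI2-AS3 (0.994), BMS1P20 (0.986) and RADX (0.975), and those closest to ZFP36L1 were SHANK2 (0.968), MAST4 (0.963) and SYNRG (0.960). The libraries fall into 3 cell types and 2 molecule labels, and the correlations do not separate these from the fractions.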

How the data were processed

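The deposited values are counts per gene, made by the authors: per their methods, total RNA libraries went through the nf-core RNA-seq pipeline with salmon, Smart-seq libraries through hisat2 and featureCounts, against hg38 or mm10 (UCSC refGene), and genes under 10 reads were filtered. Which pipeline made the polyA columns, and whether strand was used, is not given in the sources used here. The authors' DESeq2 comparison tables (fold changes and p-values) were not used. Here each comparison was fitted with edgeR 4.0.16 (glmQLFit, glmQLFTest, two-sided; limma 3.58.1, R 4.3.3) on its own libraries, with TMM, over genes with at least 1 count, at Benjamini-Hochberg adjusted p under 0.05 with no minimum fold. SE is the log2 change over the square root of F. Scripts were tested on simulated data. DESeq2 1.42.0, other scalings and filters, removal of ribosomal RNA genes, all human libraries in 1 fit, a replicate block and each library left out were alternatives. Totals of 6368953 to 17972284 counts set the precision; exact intervals cover counting error only. The 3′UTRs came from GENCODE 44 (hg38) and mouse GENCODE M21 (mm10). The members and lists were chosen with earlier results of these data known. All 10 members were named. From each further list the 2 highest and 2 lowest called genes averaging 20 CPM or more were eligible for naming, and some eligible results are not reported here. Likeness used log2 CPM with a prior count of 2.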

Additional observations from a re-analysis of the deposited data

Results flagged for a closer look

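The enrichment of ZFP36 in P-bodies differed between neurons and liver bud progenitors by 2.12 on the log2 scale in the interaction test. The call was lost with DESeq2 (adjusted p = 0.0982), without ribosomal RNA genes (adjusted p = 0.0518) and without 6 of 8 libraries in turn, and the change in neurons alone was not called (adjusted p = 0.228). The remaining differences were not tested: in each, both P-body libraries lay above both cytoplasm libraries in one cell type and below them in the other, and for every pair that joins HEK293T or mESC to the other cells the molecule label cannot be told apart from the cell type. The log2 change of ZFP36 was higher in HEK293T than in liver bud progenitors by 1.56 (0.76 and -0.80), and liver bud progenitors minus mESC gave -1.08. For ZFP36L1 the difference was 1.03 between HEK293T and liver bud progenitors, and liver bud progenitors minus mESC gave -1.12. For ELAVL1, liver bud progenitors minus mESC gave -0.98 and neurons minus mESC -1.05. For MYC, HEK293T minus liver bud progenitors gave 1.25 and liver bud progenitors minus mESC -1.06. For JUN, HEK293T was above liver bud progenitors by 1.14 and above neurons by 0.70. Both directions of ZFP36 rest on few reads, and neither its change in HEK293T nor that in mESC passed the test.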

How the results depend on the processing

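Among the log2 changes of single members, 660 values under an alternative kept their direction and their side of the threshold, 31 lost the call, 16 gained one and 41 changed sign, 21 of them when 1 library was left out and 13 with library sizes in place of TMM. Where either value rounded to 0 no change of sign was counted, as for MYCN in the interaction (0, and 0.35 with library sizes). With library sizes the median over all genes moved to -0.13 in HEK293T and -0.51 in mESC, to -0.28 in liver bud progenitors and to 0.35 in neurons, to 0.58 in the interaction and to -0.52 in the cytoplasm comparison. The 13 values that changed sign all stayed on the same side of that median as with TMM, and were ZFP36L2 (-0.08) and ELAVL1 (-0.11) in HEK293T, MYCN (-0.17) in liver bud progenitors, ZFP36L1 (0.09) and JUN (0.04) in neurons, Zfp36 (-0.12), Zfp36l2 (-0.16), Myc (-0.07), Mycn (-0.16) and Jun (-0.24) in mESC, ELAVL1 (0.28) and FOS (0.06) in the interaction and KHSRP (-0.13) in the cytoplasm comparison. The same scaling called 2591 genes enriched and 6609 depleted in mESC, against 4104 and 3271, and 3520 and 940 in the interaction with 3 members higher in neurons (ZFP36, JUN and EGR1). The filterByExpr filter gave MYCN -0.07 in liver bud progenitors, ZFP36L1 0.03 in neurons, ELAVL1 0.07 in the interaction and 2 members called there (ZFP36 and EGR1). Without ribosomal RNA genes, MYCN was -0.01 in liver bud progenitors, KHSRP -0.02 in the interaction, and 0 members were called there. With all human libraries in 1 fit, 4952 genes were depleted in neurons, MYCN was -0.09 there and KHSRP -0.09 in the interaction. DESeq2 called 2 members depleted in liver bud progenitors, 1803 genes depleted in mESC and 0 members in the interaction. The cause of these changes was not tested.

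Leaving out 1 library at a time, the log2 change ranged from -0.12 to 0.29 for ZFP36L2 in HEK293T. In liver bud progenitors it ranged from -0.01 to 0.50 for ZFP36L2, -0.14 to 0.15 for MYCN and -0.11 to 0.01 for FOS, with 0 to 1 members enriched (ZFP36L2, without P-body replicate 1 or cytoplasm replicate 2) and 3 to 4 depleted. Neurons gave -0.29 to 0.10 for ZFP36L1, -0.47 to 0.08 for ZFP36L2 and -0.07 to 0.10 for MYCN, with 2109 to 4394 genes enriched and 1892 to 4433 depleted, the lowest of each without cytoplasm replicate 1. Mouse Jun ranged from -0.04 to 0.40 and Egr1 from -1.19 to 2.02. The interaction gave 1193 to 2772 genes higher in neurons, 1160 to 3628 higher in liver bud progenitors, 0 to 2 members, -0.16 to 0.10 for KHSRP, -0.27 to 0.60 for MYC and -0.11 to 0.30 for ZFP36L1. Per the paper's methods, P-bodies were sorted from a cytoplasmic fraction of which aliquots were kept, so libraries of the same replicate number may be paired. The main tests did not use such pairing. Differences between replicates in P-bodies and in cytoplasm had correlations over genes from -0.018 to 0.057. These cannot show whether the libraries were paired. With the replicate block, ZFP36 in HEK293T was called (0.76, adjusted p = 0.0437) and KHSRP lost its call in the cytoplasm comparison (0.26, adjusted p = 0.0541), and no other member call changed. Depth limits FOS in HEK293T, Fos and Egr1 in mESC and ZFP36 in all cells.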
